A study of Rattus norvegicus with 9 samples.

Results

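Dapagliflozin (DAPA) was compared with no drug in infarcted rat left ventricle, across all genes outside oxidative phosphorylation, the mitochondrial genome, the TCA cycle and T cells. The comparison takes the 3 rats of group MI + DAPA (1st d), called group DAPA here, and the 3 rats of group MI, which are 6 of the 9 rats sequenced, with the 3 rats of group Sham beside them for reference. Of 35843 gene rows in the table, 13251 were tested, because 3 or more of the 6 rats had them at an FPKM of 1 or higher, and 13090 of these lie outside the left-out lists. All rats were adult male Sprague-Dawley rats sampled at day 28. Group MI had the left anterior descending artery tied off for good and saline by daily gavage, group DAPA had the same ligation and DAPA at 1 mg/kg by daily gavage from the first day, and group Sham had the operation without the artery being tied, and saline. The sequenced RNA is described as coming from the left ventricle and the tissue as infarcted myocardium, and molecular work in general was done mainly on the border of the infarct. The share of surviving muscle in each piece is not given in the sources used here. FPKM counts the read pairs of a gene relative to its length and to a measure of the size of the library.

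DAPA inhibits the sodium-glucose cotransporter SGLT2, which acts mainly in the kidney tubule. After ligation, muscle in the supplied area dies, immune cells enter, fibroblasts lay down collagen, and the surviving cardiomyocytes of the border switch part of their metabolism and of their gene programme. A piece of infarcted ventricle therefore mixes cardiomyocytes, endothelium, fibroblasts and immune cells, and the level of a gene in it reflects both how much of each cell type is present and how strongly each cell expresses the gene. In these bulk samples fewer cells of a type and less RNA per cell cannot be told apart.

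The reads recovered from the FPKM steps were between 13597239 and 16833876 per rat in groups MI and DAPA, and 3 reads are 1.78e-05% to 2.21e-05% of such a library. Transcripts of the mitochondrial genome took 6.93% to 18.7% of them in group MI and 17.1% to 31.6% in group DAPA. The library divisor behind FPKM did not follow these read totals. Relative to Sham replicate 1, with 16899773 reads, it was 1.85 in MI replicate 1, with 15565791 reads, and 1.53 in DAPA replicate 2, with 16833876 reads. Reads outside the transcripts of the mitochondrial genome numbered 6778719, 13222454 and 11519732 in these 3 rats, the same order as the divisor. MI replicate 2 stood apart: it had the lowest cardiomyocyte marker level and the highest macrophage marker level of the 6 rats. The labels give no batch and do not say whether rats were operated or sequenced on different days.

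On log2(FPKM + 1), a scale on which the fold changes of low genes come out too small, 126 genes stood higher and 147 lower in group DAPA than in group MI at an unadjusted limma p under 0.05 and a change of more than 2-fold, which is 0.951% and 1.11% of the genes tested. These are named the called genes below. No gene passed an adjusted p of 0.05 by limma with Benjamini-Hochberg adjustment, 0 of 13251, and the smallest adjusted p was 0.558, a value that the called genes named here share because the adjustment ties them. Limma's voom on the recovered reads also gave 0. Dropping the fold threshold left 608 higher and 517 lower at an unadjusted limma p under 0.05, or 4.59% and 3.9% of the tested genes. All 3 DAPA rats were above all 3 MI rats in 878 genes (6.63%) and below them in 949 genes (7.16%). Without MI replicate 2, the called genes numbered 38 higher and 73 lower, and with no fold threshold 216 genes (1.67% of 12942 tested) were higher and 261 (2.02%) lower. When the mitochondrial genome was left out and the rest rescaled, 101 genes were higher and 186 genes were lower.

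Outside the left-out lists, 97 called genes were higher and 144 were lower. Of these, 69 and 93 have a gene symbol rather than only a locus identifier, as do 11158 of the 13251 genes tested. The counts and shares below take all 97 and all 144. Of the 97, 29 were called again without MI replicate 2 and 12 were called in each of the 6 fits that left out 1 rat. Of the 144, 50 were called again without MI replicate 2 and 26 in each of the 6 fits. Part of the calls rests on the filter for low values: 22 of the lower genes had an FPKM of at least 1 in the 3 MI rats only, and 7 of the higher genes in the 3 DAPA rats only.

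Marker lists of cell types other than T cells were read in each rat as the mean log2(FPKM + 1) of those members that 3 or more of the 9 rats had at an FPKM of 1 or higher. The cardiomyocyte level, over 27 genes of the contractile apparatus and the calcium store, was 6.60, 5.45 and 7.48 in MI replicates 1, 2 and 3 and 7.72, 8.02 and 7.17 in DAPA replicates 1, 2 and 3. The groups overlapped, since DAPA replicate 3 was below MI replicate 3, and the difference of 1.12 between the group means was 0.60 without MI replicate 2. The sum of the FPKM of the cardiomyocyte markers spanned 3681 to 18250 in group MI and 14330 to 29512 in group DAPA, and no marker of that list in the table was at 0 in all 6 rats, so the tissue carried the markers of heart muscle that its label names. The macrophage level was 5.10, 5.78 and 5.01 in the MI rats and 4.77, 4.24 and 5.17 in the DAPA rats. These values overlapped as well, and in both groups the rats ranked by macrophage level stood in the reverse order of their cardiomyocyte level, so what goes with one cannot be told apart from what goes with the other.

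The supporting cells of the ventricle differed less. The endothelial level was 5.22, 4.88 and 5.27 in the MI rats and 5.52, 5.46 and 5.51 in the DAPA rats, with all DAPA rats above all MI rats and all 6 below the Sham rats, which had 6.46, 5.95 and 6.44. Smooth muscle and myofibroblast markers were at 5.11, 4.70 and 4.90 in the MI rats and 4.98, 4.76 and 4.92 in the DAPA rats, a difference of -0.02. Fibroblast markers were at 4.99, 5.10 and 4.57 against 4.28, 4.31 and 4.69, and DAPA replicate 3 was within the range of group MI. Among the scarcer cells, all DAPA rats were below all MI rats in the levels of lymphatic endothelial, mast cell, dendritic cell, B and plasma cell, and epicardial and mesothelial markers. The differences between group means were -0.79, -0.75, -0.51, -2.66 and -0.90 in that order, and without MI replicate 2 they were -0.61, -0.74, -0.46, -1.70 and -0.56. The epicardial and mesothelial levels nearly touched, at 1.746 in MI replicate 3 and 1.744 in DAPA replicate 1. The last 4 of these lists each hold a member that passed the filter of the 6 rats only through group MI. These are Ms4a2, Ccr7, Fcrla and Msln, and their part in the levels was not tested.

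**Figure D1:**
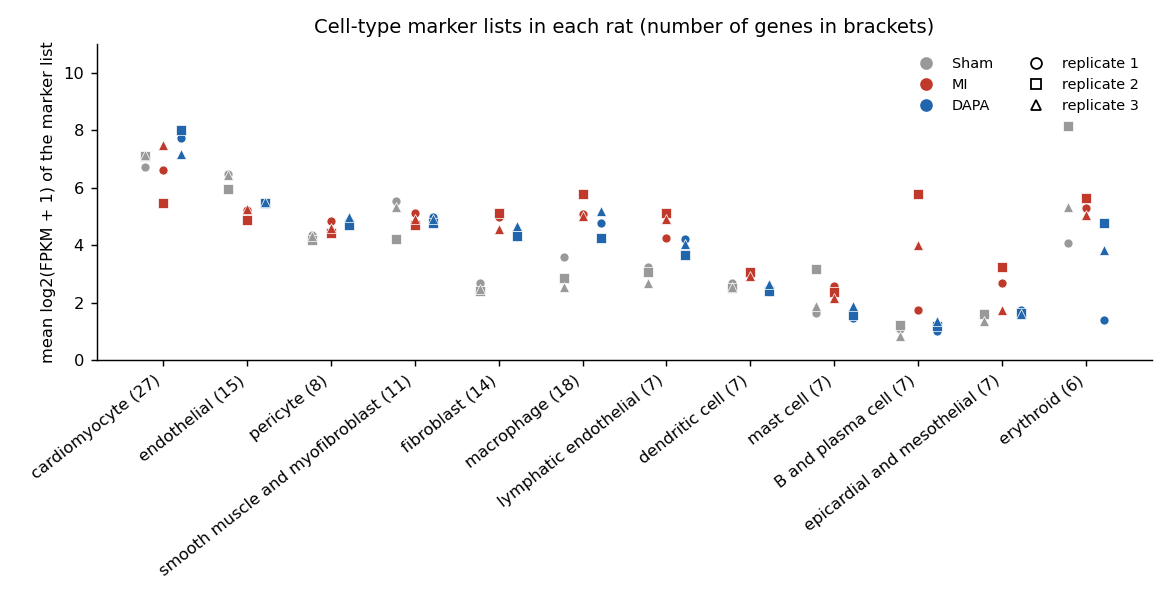
Each point is the mean log2(FPKM + 1) of a marker list in 1 rat, by group (colour) and replicate (shape). The cardiomyocyte points of groups MI and DAPA overlap and MI replicate 2 is the lowest at 5.45, while the mast cell, dendritic cell and lymphatic endothelial points of group DAPA lie below all those of group MI.

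How far cell composition went with the changes was read in a second fit, in which the cardiomyocyte level of each rat was a covariate. There 27 genes were higher and 60 genes were lower at the same thresholds, or 0.204% and 0.453% of those tested, and with no fold threshold 137 (1.03%) were higher and 172 (1.3%) lower. The list counts with this covariate given below, like those without MI replicate 2, use an unadjusted limma p under 0.05. Of the 97 higher genes outside the left-out lists, 9 were called again, and of the 144 lower genes, 29. Every one of the 97 and of the 144 kept its direction, but the median higher gene kept 39.6% of its log2 fold change and the median lower gene 64.2%. With the macrophage level as covariate, 15 of the 97 and 38 of the 144 were called again. A covariate that differs between the groups also takes up part of any difference between them, so the remaining change does not measure an effect free of composition.

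The order of the rats within each group was also read. The called genes were chosen on these same rats, so the shares that follow describe them and test nothing. Of the 97 higher genes, leaving out those that are cardiomyocyte markers themselves, 42.4% ranked the 3 MI rats and also the 3 DAPA rats exactly as the cardiomyocyte level did, compared with 8.50% of all genes tested. The lower genes did not show the mirror image to the same degree: 8.33% of the 144 ranked the rats of both groups in the opposite order, compared with 7.37% of all genes tested. MI replicate 2 was the lowest of the 6 rats in 75 of the 97 higher genes and the highest in 114 of the 144 lower genes, and over all genes tested it was the lowest in 3295 (24.9%) and the highest in 3548 (26.8%).

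**Figure D2:**
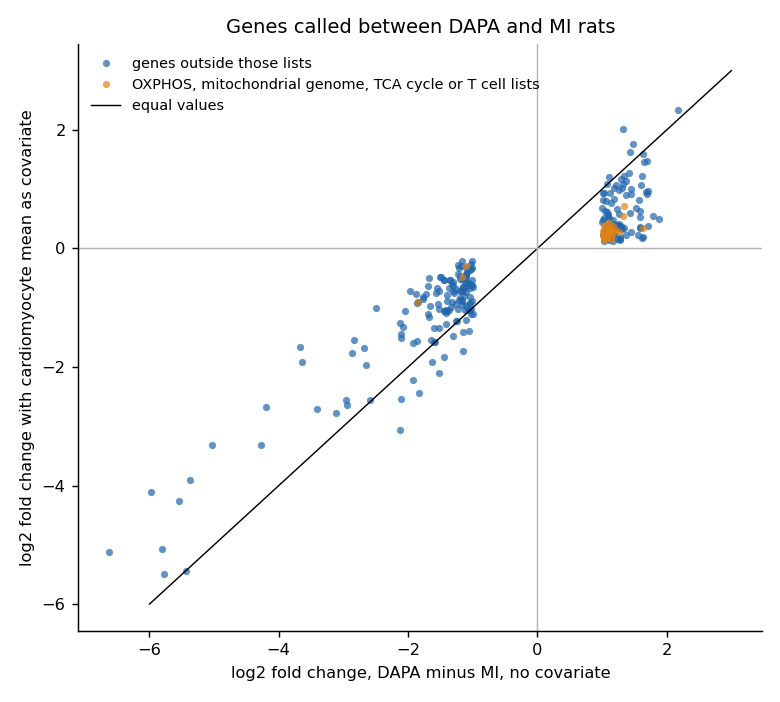
Each point is a called gene, with its log2 fold change (DAPA minus MI) on the horizontal axis and the same with the cardiomyocyte marker level as covariate on the vertical axis; the line marks equal values. Most higher genes lie nearer to 0 on the vertical axis than on the horizontal one. Outside the left-out lists, the median of the higher genes is 1.26 on the horizontal and 0.49 on the vertical axis. That of the lower genes is -1.36 and -0.93.

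Genes of MHC class II were lower in group DAPA as a group. These genes encode the molecules that present peptides to helper T cells and are expressed by dendritic cells, B cells and activated macrophages. Of 10 genes tested, 8 were lower at an unadjusted limma p under 0.05, 5 of them were called, and none was higher, where 3.9% of all genes tested were lower. The median log2 fold change was -1.19, compared with -0.02 over all genes. Without MI replicate 2, 6 of the 8 genes still tested were lower, with a median of -1.09, and with the cardiomyocyte level as covariate 4 of 10 were lower, with a median of -0.98. The list level was 3.72, 4.76 and 4.31 in the MI rats and 2.95, 3.17 and 3.13 in the DAPA rats, and it was 3.11, 1.79 and 1.83 in the Sham rats. Set against the macrophage level of the same rats, by subtraction, it was -1.38, -1.01 and -0.71 in the MI rats and -1.82, -1.07 and -2.04 in the DAPA rats, where DAPA replicate 2 lay within the range of group MI.

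The genes of this list that the data turn on were read in every rat. The invariant chain gene Cd74 (ENSRNOG00000018735), whose product occupies the groove of class II molecules until they reach the endosome, had an FPKM of 650.4, 1618 and 1002 in the MI rats, 316, 422 and 417 in the DAPA rats and 260.3, 98.5 and 99.7 in the Sham rats. Every DAPA rat was below every MI rat, with a log2 fold change of -1.41 (SE 0.36). For RT1-Da (ENSRNOG00000032844), an alpha chain, the FPKM was 106, 257 and 159 in the MI rats and 48.1, 67.1 and 66.1 in the DAPA rats, and the log2 fold change was -1.43 (SE 0.33). Its partner RT1-Db1, a beta chain, went from 18.2, 56 and 26.9 to 10.2, 8.29 and 11.1, a log2 fold change of -1.54 (SE 0.38). RT1-Ba, an alpha chain of the other classical pair, was at 27, 37.4 and 33.5 in the MI rats and at 6.01, 15.4 and 16 in the DAPA rats, a log2 fold change of -1.41 (SE 0.35). RT1-DOa, a chain of the non-classical molecule that tempers peptide loading, had 3.1, 5.83 and 4 against 1.16, 1.34 and 1.13, and its log2 fold change was -1.23 (SE 0.22). In each of these 5 called genes every DAPA rat was below every MI rat. The same held for 7.16% of all genes tested and for 119 of the 147 called lower genes, so this is usual for a called gene. The transactivator Ciita, on which transcription of class II genes depends, had an FPKM of 2.86, 6.56 and 3.87 in the MI rats and 1.58, 2.27 and 1.66 in the DAPA rats, which do not overlap, with a log2 fold change of -0.89 (SE 0.27), which passed the unadjusted test but not the fold threshold. RT1-DOb, with a log2 fold change of -0.86 (SE 0.30), and RT1-DMa, an alpha chain of the peptide-loading molecule, complete the 8 lower genes, and neither passed the fold threshold. RT1-DMa was at 1.11, 2.00 and 1.03 against 0.561, 0.432 and 0.224, and it passed the filter only through group MI. RT1-Bb and RT1-DMb overlapped between the groups, with log2 fold changes of -1.15 (SE 0.75) and -1.13 (SE 1.22). Cd74, RT1-Ba, RT1-Bb, RT1-DMa, RT1-DMb, RT1-DOb and Ciita were chosen after their values were seen.

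Most of the class II genes share an arrangement of letters before their start that the comparison did not use, and 4 stretches of 160 bases are shown for that reason. Of the 10 genes tested, 8 matched a promoter in the RefSeq table of build GRCr8. The letters TGATTGG, the core of the Y box (an inverted CCAAT), were found on either strand within 250 bases before the start in 7 of these 8 and in 6.42% of the 33469 promoters of the table. The exception was Cd74, a called gene, while RT1-Bb, which overlapped between the groups and was not called, holds the letters. The letters were chosen after the promoters were looked at. RT1-Da, RT1-Db1, RT1-Ba and RT1-DOa lie on chromosome 20 at chr20:4515255-4515414 (plus strand), chr20:4560163-4560322 (minus strand), chr20:4576897-4577056 (plus strand) and chr20:4758424-4758583 (minus strand), each stretch ending at the base before the start of the gene. Capitals mark TGATTGG, and all stretches read 5′ to 3′ on the strand of the gene.
RT1-Da: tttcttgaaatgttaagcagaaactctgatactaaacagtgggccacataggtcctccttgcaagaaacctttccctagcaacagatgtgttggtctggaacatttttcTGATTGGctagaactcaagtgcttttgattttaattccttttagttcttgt
RT1-Db1: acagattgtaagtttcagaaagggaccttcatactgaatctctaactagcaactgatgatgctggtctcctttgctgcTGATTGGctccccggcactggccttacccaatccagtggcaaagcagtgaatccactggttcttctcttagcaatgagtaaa
RT1-Ba: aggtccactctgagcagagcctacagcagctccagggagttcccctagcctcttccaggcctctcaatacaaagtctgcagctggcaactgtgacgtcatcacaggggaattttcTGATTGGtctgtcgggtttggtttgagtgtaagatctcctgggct
RT1-DOa: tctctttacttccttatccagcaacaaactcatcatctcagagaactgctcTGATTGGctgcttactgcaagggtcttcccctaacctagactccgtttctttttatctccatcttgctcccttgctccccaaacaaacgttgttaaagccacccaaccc
TGATTGG began 51, 82, 45 and 109 bases before the start in RT1-Da, RT1-Db1, RT1-Ba and RT1-DOa. RT1-DOb, another member that holds it, had an FPKM of 2.4, 4.26 and 2.82 in the MI rats and 0.562, 1.36 and 2.08 in the DAPA rats. A match of letters describes the sequence only, and binding was not measured.

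Some markers of dendritic cells, macrophages and B cells were also lower, and their part in the class II difference was not tested. Beside the counts of this paragraph, 3.9% of all genes tested were lower, and 1.3% with the cardiomyocyte level as covariate. In the dendritic cell list, 2 of 7 genes tested were lower at an unadjusted limma p under 0.05 and 0 were higher. The summed FPKM of the list was 95.5 to 142 in group MI and 51.6 to 74.8 in group DAPA. Clec10a, a lectin of dendritic cells and macrophages, had an FPKM of 80.6, 106 and 64.1 in the MI rats and 40.1, 30.4 and 47.9 in the DAPA rats, with a log2 fold change of -1.06 (SE 0.24). Ccr7, the receptor that guides mature dendritic cells and naive lymphocytes to lymph nodes, had 2.21, 5.88 and 3.11 against 0.638, 0.917 and 0.775. It rested on 61 to 148 reads per MI rat and 15 to 21 reads per DAPA rat, and it passed the filter only through group MI. In the macrophage list, 3 of 18 genes were lower and 0 were higher, and with the cardiomyocyte level as covariate 0 of 18 were lower, with a median of -0.04. The scavenger receptor Cd163 had 16.7, 18.8 and 9.43 in the MI rats and 7.08, 5.79 and 7.75 in the DAPA rats, and the mannose receptor Mrc1 had 44.6, 36.8 and 20.9 against 18, 15.5 and 15.3. Both are markers of resident macrophages, and neither reached the 2-fold threshold, with log2 fold changes of -0.98 (SE 0.26) and -0.96 (SE 0.27). The summed FPKM of the macrophage list overlapped, at 1168.5 to 2116 in group MI and 685 to 1309 in group DAPA. For B and plasma cells, 3 of 5 genes were lower, of which Fcrla passed the filter only through group MI, but their summed FPKM in group MI spanned 39.7 to 3888, with the highest value in MI replicate 2, against 12.9 to 19.5 in group DAPA.

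Mast cell genes were lower in the DAPA rats with and without MI replicate 2. Mast cells store proteases and histamine in granules and release them in injured tissue. Of 7 genes tested, 4 were lower at an unadjusted limma p under 0.05, 3 of them called, and 0 were higher. Without MI replicate 2 there were 3 of 6 lower, and with the cardiomyocyte level as covariate 3 of 7. Over all genes tested, 3.9% were lower, 2.02% without MI replicate 2 and 1.3% with the covariate, and 1.11% were called lower. The receptor subunit Ms4a2, lower but not called, passed the filter only through group MI. Chymase Cma1 (ENSRNOG00000020563), which can form angiotensin II, had an FPKM of 14.6, 10.4 and 8.51 in the MI rats and 5.81, 4.57 and 3.78 in the DAPA rats. The groups did not overlap, with a log2 fold change of -1.07 (SE 0.23) that was -1.11 without MI replicate 2 and -1.03 with the covariate. Tryptase Tpsb2 had 10.8, 7.48 and 4.37 against 1.2, 2.47 and 2.76, a log2 fold change of -1.41 (SE 0.34). The third called gene, the carboxypeptidase Cpa3, which was chosen after its values were seen, had 5.94, 8.38 and 6.68 against 2.5, 1.2 and 5. The Sham rats ranged widely, with Cma1 at 3.9, 26.7 and 4.51, so 1 Sham rat was above every MI rat. Kit, the receptor for stem cell factor, a marker of mast cells that other cells also carry, did not pass, with a log2 fold change of -0.11 (SE 0.20).

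Lymphatic endothelial genes had the same direction. Of 7 tested, 3 were lower and 0 higher at an unadjusted limma p under 0.05, and 2 of the 7 without MI replicate 2 and with the covariate. The shares of all genes tested that were lower in these 3 fits were 3.9%, 2.02% and 1.3%. Lyve1 (ENSRNOG00000026902), a hyaluronan receptor of lymphatic endothelium that a subset of resident macrophages also carries, had an FPKM of 48.6, 82.6 and 71.1 in the MI rats and 37.2, 28.9 and 30.6 in the DAPA rats. No DAPA rat reached an MI rat, and the log2 fold change was -1.02 (SE 0.22). Reln, a secreted glycoprotein of lymphatic collectors, had 4.69, 7.3 and 6.49 against 3.64, 2.15 and 2.11, and Mmrn1, an extracellular multimerin, had 16.7, 34.8 and 42.7 against 16.2, 11.9 and 13.4. The transcription factor of lymphatic identity, Prox1, did not pass the test, with a log2 fold change of -0.58 (SE 0.26).

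Complement and other secreted immune proteins followed, with the widest ranges in group MI. Of 15 complement genes, 3 were lower and 0 higher at an unadjusted limma p under 0.05, and the list median of -0.73 was -0.37 without MI replicate 2 and -0.10 with the covariate. C3, the central component of the cascade, had an FPKM of 8.74, 106 and 17.4 in the MI rats and 3.57, 2.32 and 6.03 in the DAPA rats. C6, a component of the membrane attack complex, had 14.6, 193 and 55.8 against 2.71, 8.09 and 12.2, and both genes separated the groups in spite of the spread. The log2 fold change of C3 was -2.49 (SE 0.83) and -1.50 without MI replicate 2, and that of C6 was -2.86 (SE 0.91) and -1.96. Among 24 chemokines and receptors, 3 were lower and 0 higher. The list median of -0.22 was -0.09 without MI replicate 2 and 0.07 with the covariate. For all lists of this paragraph, 3.9% of all genes tested were lower. Cxcl13, which attracts B cells to follicles, had an FPKM of 47.2, 121 and 54.5 in the MI rats and 17.1, 14.6 and 44.4 in the DAPA rats. The log2 fold change of Cxcl13 of -1.56 (SE 0.50) became -0.67 (SE 0.45) with the covariate. Pla2g2d, a phospholipase of lymphoid dendritic cells, had 19, 89.9 and 32.3 against 5.98, 10.7 and 17.8. Plac8 and Slpi, a leukocyte gene and a protease inhibitor of secretions, overlapped between the groups: Slpi had 16.1, 42.6 and 9.26 in the MI rats and 12.8, 0.145 and 0.84 in the DAPA rats. The inflammasome sensor Nlrp3 was at 3.26, 3.63 and 3.41 in the MI rats and 1.72, 1.26 and 2.48 in the DAPA rats, a log2 fold change of -0.67 (SE 0.20), and 2 of 14 genes of its list were lower. In the lysosome list, 4 of 24 were lower and 0 higher, led by cathepsin S, Ctss, a protease that trims the invariant chain, with 148, 243 and 153 against 67.8, 64.4 and 125.

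**Figure D3:**
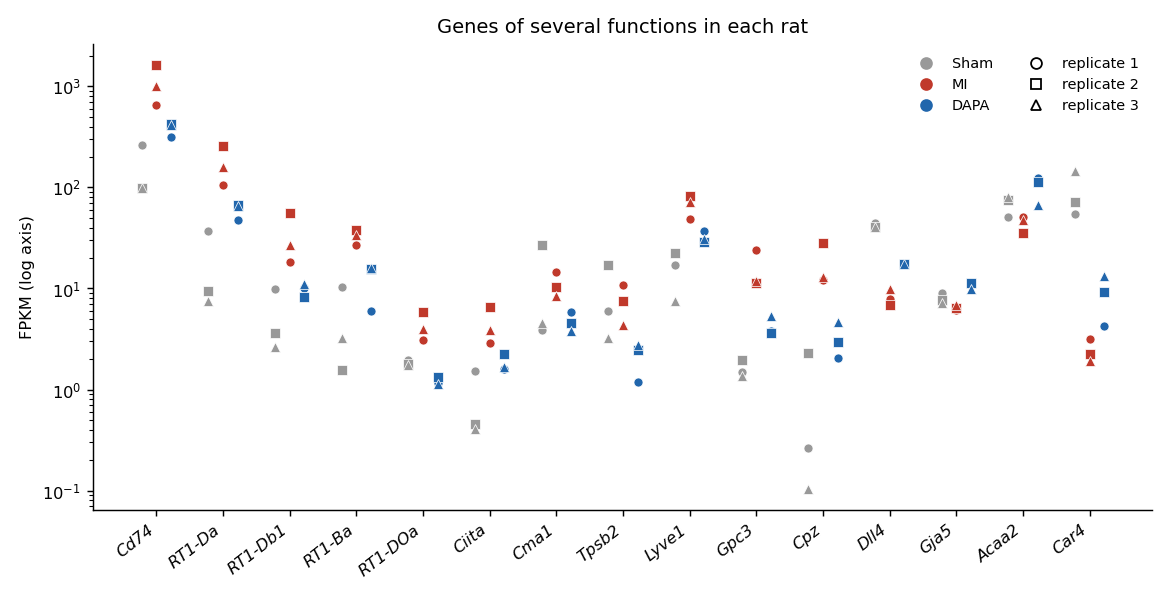
FPKM on a log axis in each rat of groups Sham, MI and DAPA for 15 genes of several functions. Only genes that separate groups MI and DAPA are drawn, and over all genes tested 6.63% separate above and 7.16% below. The class II genes drawn, the mast cell proteases Cma1 and Tpsb2, Lyve1, Gpc3 and Cpz lie lower in every DAPA rat than in any MI rat. Dll4, Gja5, Acaa2 and Car4 lie higher. The class II genes RT1-Bb and RT1-DMb, which overlap, are not drawn.

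Matrix genes were lower in part. Of 18 collagen genes, 6 were lower and 0 higher at an unadjusted limma p under 0.05, and 2 of 18 without MI replicate 2. For the lists here, 3.9% of all genes tested were lower, and 2.02% without MI replicate 2. The median log2 fold change was -0.53 and became -0.20 with the cardiomyocyte level as covariate. The collagen level minus the fibroblast level of the same rat was 1.42, 1.10 and 1.15 in the MI rats and 1.13, 1.07 and 1.32 in the DAPA rats, which overlapped. Col6a1, a collagen of the microfibrillar network, had an FPKM of 228, 266 and 167 in the MI rats and 106, 99.7 and 162 in the DAPA rats, with a log2 fold change of -0.85 (SE 0.26). DAPA replicate 3 stood just below the lowest MI rat. Among 25 proteoglycans and matricellular proteins, elastin (Eln) and Ccn3 were called: Eln had 422, 313 and 197 in the MI rats and 53.5, 122 and 216 in the DAPA rats, where DAPA replicate 3 overlapped. The elastic fibre protein Mfap2, chosen after its values were seen, had 51.6, 81.9 and 44 against 9.5, 26.7 and 28, with a log2 fold change of -1.52 (SE 0.43). Fibroblast markers themselves were lower in 4 of 14 genes, among them Osr1, a transcription factor, at 27.1, 38.3 and 21.2 against 15.1, 13.7 and 14.3.

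Carboxypeptidase Z and glypican 3 were called in each of the 6 fits that left out 1 rat. Cpz (ENSRNOG00000008947), a secreted carboxypeptidase with a Wnt-binding domain, had an FPKM of 12.1, 28.4 and 13 in the MI rats, 2.04, 2.93 and 4.69 in the DAPA rats and 0.265, 2.29 and 0.105 in the Sham rats. The log2 fold change of Cpz was -2.10 (SE 0.37), from -2.34 to -1.73 over the fits with 1 rat less, and -1.45 (SE 0.33) with the covariate. Gpc3 (ENSRNOG00000060179), a membrane proteoglycan that modulates Wnt and hedgehog signals, had 24.1, 11.3 and 11.9 against 3.84, 3.6 and 5.38. Its log2 fold change was -1.60 (SE 0.30) and -1.58 (SE 0.42) with the covariate, and MI replicate 2 was its lowest MI rat rather than its highest. Sfrp2, a secreted Wnt antagonist of scar fibroblasts, had 133, 228 and 72.3 against 21.1, 35 and 83.5, so DAPA replicate 3 overlapped, and its log2 fold change of -1.69 (SE 0.58) became -0.63 (SE 0.49). In the list of Wnt antagonists and receptors, 12 of 14 genes had a negative log2 fold change, with a median of -0.37, and 1 lower and 1 higher gene passed an unadjusted limma p under 0.05. These were Sfrp2 and the ligand Wnt11, at 2.43, 3.09 and 2.24 in the MI rats and 5.59, 3.3 and 3.98 in the DAPA rats. Among 23 genes of TGF-beta and BMP signalling, 2 were lower at an unadjusted limma p under 0.05 and 0 were called, where 3.9% of all genes tested were lower. The list as a whole was flat, with a median of -0.02, 11 positive genes and 12 negative ones. The 2 lower genes were the co-receptor Tgfbr3 and the latency protein Ltbp1. Tgfbr3 had 24.5, 30.9 and 29.7 against 18.8, 17.8 and 18.8, with a log2 fold change of -0.59 (SE 0.14).

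A few endothelial and arterial genes were higher in the DAPA rats. In the endothelial list all 15 genes tested had a positive log2 fold change, and 3 passed an unadjusted limma p under 0.05. Without MI replicate 2, 1 of 15 passed, and with the covariate 0, while the median of 0.36 went to 0.23 and 0.19. Among all 13251 genes tested, 6261 had a positive log2 fold change. At that p, 4.59% were higher, with 1.67% without MI replicate 2 and 1.03% with the covariate. The VEGF receptor Flt1 had an FPKM of 20.8, 10.7 and 16.5 in the MI rats and 29.2, 32.4 and 25 in the DAPA rats, a log2 fold change of 0.85 (SE 0.24). The angiopoietin receptor Tek had 23.4, 20.4 and 22.2 against 28.7, 25.7 and 34.8, and both genes separated the groups. Dll4 (ENSRNOG00000014011), the Notch ligand of arterial and sprouting endothelium, chosen after its values were seen because its p was the smallest of the called genes with a symbol, had 7.87, 6.88 and 9.85 in the MI rats, 17.6, 17.3 and 17.6 in the DAPA rats and 44.6, 40.1 and 40.2 in the Sham rats. Its log2 fold change was 1.02 (SE 0.15) and 0.81 (SE 0.16) with the cardiomyocyte level as covariate. Gja5, connexin 40 of arterial endothelium and the conduction system, had 6.15, 6.4 and 6.81 in the MI rats and 11, 11.4 and 9.96 in the DAPA rats. The log2 fold change of Gja5 was 0.66 (SE 0.12), and it ranged from 0.63 to 0.71 over the fits with 1 rat less. Car4 (ENSRNOG00000002916), a carbonic anhydrase on the surface of capillary endothelium and cardiomyocytes, had 3.14, 2.26 and 1.92 against 4.24, 9.32 and 13.4, still below the Sham rats at 55.1, 71.6 and 146. For Car4 the log2 fold change of 1.43 (SE 0.37) was 1.63 (SE 0.51) with the covariate. Cd300lg, a receptor of capillary endothelium chosen after its values were seen, had 6.47, 1.81 and 5.85 against 20.2, 8.63 and 8.73. Its log2 fold change of 1.26 (SE 0.46) was 0.81 without MI replicate 2 and 0.59 (SE 0.51) with the covariate, and it was called in neither of these fits.

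Genes of fatty acid uptake and beta-oxidation were higher in group DAPA as a group. The heart draws most of its energy from fatty acids, which are activated, carried into mitochondria and shortened step by step. Of 22 genes tested, 12 were higher at an unadjusted limma p under 0.05, 3 of them called, and 0 were lower, where 4.59% of all genes were higher. Without MI replicate 2, 4 of 22 were higher, and with the covariate 1, while the median log2 fold change went from 0.80 to 0.50 and 0.20. Acaa2 (ENSRNOG00000013766), the mitochondrial thiolase that ends each cycle, had an FPKM of 51.3, 35.6 and 47.1 in the MI rats and 125, 113 and 66.8 in the DAPA rats. No MI rat reached a DAPA rat, and the log2 fold change was 1.13 (SE 0.27) and 0.77 (SE 0.30) with the covariate. Eci1, an isomerase for unsaturated chains, had 47.8, 34.6 and 53.1 against 96.7, 109.7 and 62.7. Acot13, a mitochondrial acyl-CoA thioesterase, had 12.3, 9.28 and 25 against 48.8, 52.1 and 25, so DAPA replicate 3 and MI replicate 3 had nearly the same value. Phyh, the peroxisomal hydroxylase that starts the breakdown of phytanic acid, had 125, 51.2 and 189 against 298, 457 and 245. The genes of fat droplets Plin5, Pnpla2 and Fitm1, chosen after their values were seen, were each higher in every DAPA rat than in any MI rat. So were 6.63% of all genes tested and 73 of the 126 called higher genes. Pnpla2, the first lipase of triglyceride breakdown, had 0.254, 0.783 and 3.42 in the MI rats and 4.94, 3.58 and 5.32 in the DAPA rats.

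Some genes of glycolysis, of the mitochondrial ribosome and of mitochondrial import were higher as well. Of 25 genes of glycolysis and pyruvate oxidation, 6 were higher and 0 lower at an unadjusted limma p under 0.05, and 1 of 25 without MI replicate 2. Their median of 0.40 was -0.01 with the cardiomyocyte level as covariate. For this list and those that follow, 4.59% of all genes tested were higher and 3.9% lower. Pgam2, the muscle phosphoglycerate mutase, had an FPKM of 86.5, 29.3 and 87.7 in the MI rats and 177, 269.7 and 131 in the DAPA rats. Its log2 fold change was 1.58 (SE 0.47) and 0.63 (SE 0.31) with the covariate. Slc2a4, the insulin-dependent glucose carrier, had 17.2, 8.5 and 26.2 against 32.7, 59.8 and 25.2, and Eno3, the muscle enolase, had 23.9, 8.36 and 51.1 against 63.2, 119.9 and 43.9, so both overlapped at replicate 3. Of 21 genes of ketone and branched-chain amino acid oxidation, 2 were higher and 0 lower. Of 73 mitochondrial ribosomal proteins, 28 were higher and 0 lower, with 0 past the fold threshold, and 8 without MI replicate 2; Mrpl21 had 12.3, 12.5 and 12.5 in the MI rats and 19.2, 18.9 and 15.4 in the DAPA rats. Of 21 genes of mitochondrial protein import, 5 were higher and 0 lower. The 36 mitochondrial carriers of the Slc25 family went both ways, with 3 higher, 2 lower (Slc25a44 and Slc25a10) and a median of 0.06. The 63 cytosolic ribosomal proteins tested had 0 genes past an unadjusted limma p under 0.05 in either direction and a median of 0.14. In the proteasome list 5 of 33 were higher and 0 without MI replicate 2.

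**Figure D4:**
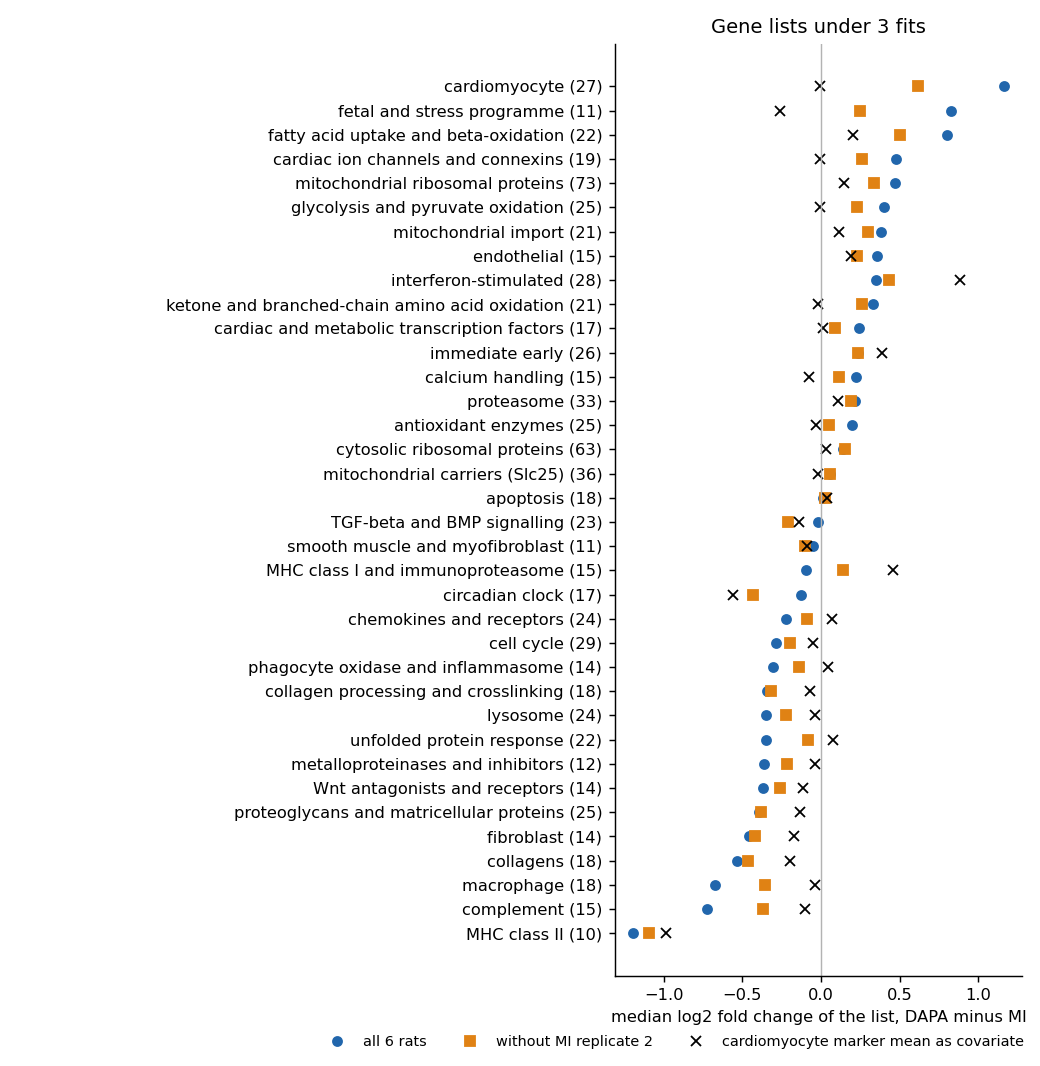
Median log2 fold change (DAPA minus MI) of each gene list with at least 10 genes tested, in the fit of all 6 rats, without MI replicate 2 and with the cardiomyocyte marker level as covariate. The medians of the muscle and metabolic lists move towards 0 with the covariate, which holds the cardiomyocyte list at 0 by construction, and the MHC class II median goes from -1.19 to -0.98.

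Cardiomyocyte genes were higher in 6 of 27 and lower in 0. In the cardiomyocyte list all 27 genes had a positive log2 fold change, and 1 passed an unadjusted limma p under 0.05 without MI replicate 2. Higher genes made up 4.59% of all genes tested, and 1.67% without MI replicate 2. Hrc, a calcium-binding protein of the sarcoplasmic reticulum, had an FPKM of 19, 7.79 and 38.2 in the MI rats and 47.6, 92 and 39.6 in the DAPA rats, and its log2 fold change of 1.58 (SE 0.56) was 0.34 (SE 0.24) with the covariate, of which it is itself a part. Nmrk2, a muscle kinase that makes NAD from nicotinamide riboside, had 8.17, 0.767 and 5.53 against 23.5, 20.1 and 7.32. Myl4, the atrial essential light chain that injured ventricle also makes, had 17.2, 8.9 and 61.8 against 59.1, 109 and 50, and its log2 fold change of 1.63 (SE 0.66) was 0.20 (SE 0.32) with the covariate. In Nmrk2 and in Myl4 DAPA replicate 3 was within the range of group MI. Rpl3l, the striated muscle form of a ribosomal protein, and Tuba8, a tubulin of heart and muscle, went from 1.71 (SE 0.39) to 0.97 (SE 0.30) and from 1.70 (SE 0.40) to 0.92 (SE 0.29) in log2 fold change with the covariate. Dhrs7c, a reductase of the sarcoplasmic reticulum, had 0.682, 2.34 and 3.85 in the MI rats, 7.94, 13.2 and 3.4 in the DAPA rats and 27, 47.3 and 42 in the Sham rats. Depp1, a gene induced by FOXO factors, had 48.3, 30.4 and 51.1 against 108, 137 and 67.6. Rbm39, a splicing factor, had 2.48, 4.22 and 2.25 against 13.3, 26.3 and 3.64, and 35.2, 111 and 68.7 in the Sham rats, with DAPA replicate 3 close to group MI.

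**Figure D5:**
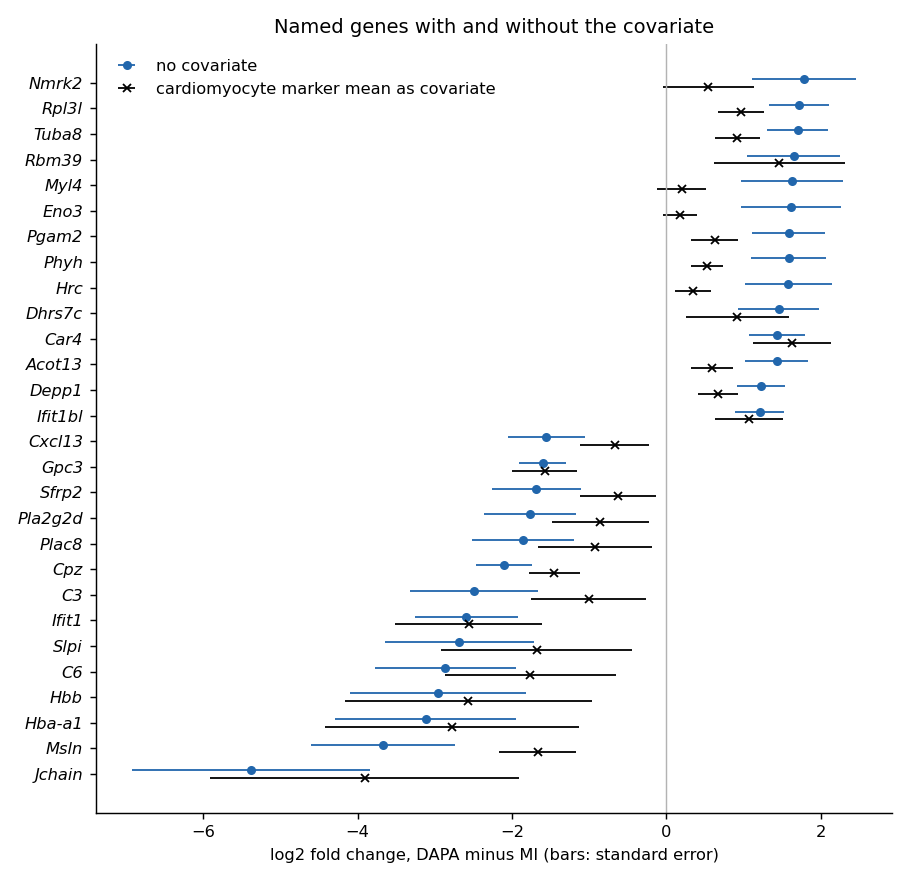
Log2 fold change (DAPA minus MI) of the 14 higher and 14 lower genes of the rule for named genes, without a covariate (circles) and with the cardiomyocyte marker level as covariate (crosses); bars are standard errors. Myl4 and Eno3 come close to 0 with the covariate, at 0.20 and 0.17, while Car4, Gpc3 and Ifit1 are at 1.63, -1.58 and -2.56.

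Ion channels and connexins were higher in 3 of 19 genes and lower in 0, and without MI replicate 2 higher in 4. Beside these, 4.59% of all genes tested were higher, and 1.67% without MI replicate 2. Kcnj11, the pore of the ATP-sensitive potassium channel, had an FPKM of 4.9, 1.83 and 8.13 in the MI rats and 13.3, 14.2 and 9.27 in the DAPA rats. For Kcnj11 the log2 fold change of 1.29 (SE 0.42) was 0.83 without MI replicate 2 and 0.37 (SE 0.16) with the covariate. Kcnk3, an acid-sensitive background potassium channel, had 5.93, 3.72 and 8.92 against 11.5, 15.1 and 9.75, with no overlap. In the calcium handling list 0 of 15 genes passed in either direction at an unadjusted limma p under 0.05, and in the fetal and stress programme 0 of 11, with a median of 0.83 that was 0.25 without MI replicate 2. All 11 had a positive log2 fold change, and with the cardiomyocyte level as covariate all 11 had a negative one, with a median of -0.26 and 1 gene lower at an unadjusted limma p under 0.05. Nppb, the B-type natriuretic peptide gene, was at 484, 99.4 and 811 in the MI rats and 965, 769.9 and 543 in the DAPA rats. These overlapped, with a log2 fold change of 1.12 (SE 0.74), which was 0.24 without MI replicate 2 and -0.44 (SE 0.38) with the covariate.

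A few genes of fat cells and fat synthesis were higher in group DAPA, from low levels. Thrsp, a regulator of lipogenesis, had an FPKM of 1.05, 0.276 and 0.127 in the MI rats and 2.85, 6.52 and 8.39 in the DAPA rats, or 25, 6 and 3 reads against 58, 129 and 187, and it was at 0 in the 3 Sham rats. Its log2 fold change was 2.18 (SE 0.39), from 1.91 to 2.55 over the fits with 1 rat less, and 2.33 (SE 0.54) with the covariate. Retn, the adipokine resistin, had 2, 7 and 2 reads in the MI rats and 32, 36 and 78 in the DAPA rats, and its FPKM passed the filter through group DAPA alone. Scd, the stearoyl-CoA desaturase, chosen after its values were seen, had an FPKM of 0.601, 2.53 and 0.828 against 1.6, 5.12 and 9.34, where DAPA replicate 1 overlapped with MI replicate 2. The other adipocyte marker tested, adipsin (Cfd), did not pass, with 46.5, 219.7 and 70.9 in the MI rats and 31, 29.5 and 52.7 in the DAPA rats. Of 8 adipocyte markers in the table, 3 were tested, and Ucp1 was at 0 in all 6 rats. The summed FPKM of these 8 overlapped, at 48.6 to 221 in group MI and 36.7 to 74 in group DAPA. Cfd alone was 46.5 and 219.7 of the lowest and highest sum in group MI. It was 31 and 52.7 of those in group DAPA, so the sums mainly reflect Cfd and not the list. Fat in the pieces was not measured, and its part in these genes was not tested.

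Interferon-stimulated genes were high in a single DAPA rat. The level of 28 such genes was 3.30, 3.91 and 4.28 in the MI rats and 3.23, 3.25 and 5.98 in the DAPA rats, so DAPA replicate 3 was above all others, the Sham rats included. In that rat Ifit3, an antiviral protein that binds RNA complexes, reached an FPKM of 121, compared with 13.8 and 8.46 in the other two DAPA rats and 7.16, 8.81 and 17.8 in the MI rats. Of the 28 genes, 0 were higher and 1 was lower at an unadjusted limma p under 0.05, where 4.59% of all genes tested were higher and 3.9% lower. That one was Ifit1 (ENSRNOG00000019050), with 7.33, 13.3 and 11.1 in the MI rats and 4.89, 0.0903 and 0.0267 in the DAPA rats, the last from 1 read, and it was lowest in the rat where its relatives were highest. Ifit1bl, a near copy, was higher, with 2.19, 1.36 and 2.9 against 6.97, 3.66 and 8.79 and a log2 fold change of 1.21 (SE 0.32). Counting can split reads between such copies, so both values are uncertain.

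Some genes of red blood cells, and 1 gene of the heart surface, were lower in group DAPA. The erythroid level was 5.28, 5.64 and 5.06 in the MI rats and 1.39, 4.76 and 3.82 in the DAPA rats, which did not overlap. The alpha globin gene Hba-a1 had an FPKM of 541, 776 and 431 in the MI rats, 7.63, 266 and 119 in the DAPA rats and 129.6, 2714 and 357 in the Sham rats. Hbb had 193, 279 and 166 against 2.57, 90.8 and 57.9, and all DAPA rats were below all MI rats in both genes. Globin genes are near copies of each other and are made by red cells; blood in the pieces was not measured and its part was not tested. Of 6 erythroid genes tested, 4 were lower at an unadjusted limma p under 0.05, and 0 of 5 without MI replicate 2. For the lists of this paragraph, 3.9% of all genes tested were lower, and 2.02% without MI replicate 2. Alas2, the first enzyme of heme synthesis in red cells and 1 of the 4, passed the filter only through group MI. The mesothelial gene Msln had 13.3, 78.8 and 3.42 in the MI rats and 0.416, 0.228 and 0.405 in the DAPA rats, from 8 to 16 reads each. It passed the filter only through group MI and was not tested without MI replicate 2. It was the 1 of 7 epicardial and mesothelial genes that passed an unadjusted limma p under 0.05, where without MI replicate 2 there were 0 of 4, and the list median of -0.73 was -0.05 with the covariate. The mesothelium covers the surface of the heart, and how much surface each piece included was not measured, so its part was not tested.

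Among genes that the study measured by other methods, apoptosis and matrix genes were read as follows. Bcl2, Bax, Bak1 and Casp9 did not pass an unadjusted limma p under 0.05, with log2 fold changes between -0.30 and 0.19. Cytochrome c, Cycs, had 88, 59.5 and 139 against 210.3, 209 and 115, a log2 fold change of 0.92 (SE 0.37) that was 0.18 (SE 0.23) with the covariate. Sod2, Acta2 and Tgfb1 did not pass either, at 0.30 (SE 0.19), -0.05 (SE 0.25) and 0.06 (SE 0.18). Collagen 1 (Col1a1) was lower, with 1012, 1393 and 650.2 in the MI rats and 312, 441 and 602 in the DAPA rats, and collagen 3 (Col3a1) overlapped, at 2817, 3824 and 1840.3 against 789.7, 1353 and 2074. Gapdh, a glycolytic enzyme often used as a reference, had 837, 422 and 953 against 1413, 1424 and 774. Its values overlapped, with a log2 fold change of 0.74 (SE 0.41) that did not pass.

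The drug target was at the limit of detection in these samples. Slc5a2, which encodes SGLT2, had 7, 9 and 21 reads in the MI rats and 6, 11 and 8 in the DAPA rats, at an FPKM of 0.152 to 0.286 in group DAPA, which is below the filter, and was not tested. The FPKM of Slc5a1, which encodes SGLT1, was 0 in all 9 rats. The cytosolic ribosomal protein genes Rpl23a and Rpl10a were also at 0 in every rat of groups MI and DAPA, so a 0 here does not settle that a gene is not expressed. In the list of sodium transport, 2 of 8 genes were higher at an unadjusted limma p under 0.05 and 0 were lower, where 4.59% of all genes tested were higher. The list median was 0.13. The 2 were the sodium-potassium-chloride cotransporter Slc12a2, at 8.06, 6.1 and 7.07 against 8.97, 10.5 and 12.9, and Fxyd1, the sodium pump regulator phospholemman.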

How the data were processed

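The authors deposited FPKM values, 1 per gene and rat, from poly-T selected paired-end libraries; the submitters' processing notes name HISAT2 2.0.5, StringTie 1.3.3b, featureCounts 1.5.0-p3 and DESeq2, and the genome build is not given in the sources used here, so gene coordinates from the files are not given; promoters are RefSeq GRCr8. Read direction is not stated, so antisense partners cannot be told apart. The number of columns not used is 0. Whole reads were recovered from the FPKM steps for 18896 of 18896 genes seen in at least 4 rats. limma 3.58.1 (R 4.3.3; trend, two-sided) was fitted to log2(FPKM + 1) of the 6 rats, after a filter of FPKM 1 in 3 rats, and genes were called where the unadjusted p was under 0.05 and the log2 fold change was over 1 in size. The test was checked on simulated data in which genes varied independently and with the same spread. Genes here differ in spread and 1 MI rat stood apart, so that check does not show how the test behaves in these data. Tables were made in Python 3.11.15 (pandas 2.3.3, numpy 2.4.6) and plots with matplotlib 3.10.9.

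The gene lists and the genes named were chosen with earlier results of these data known. The rule named, in each direction, the 14 called genes that keep the largest change over all fits that leave out 1 rat (mean log2 of at least 2, immunoglobulin chains and left-out lists excluded), at most 3 genes with the smallest p per list, the genes of the study's other assays, and genes of sodium transport that include Slc5a1 and Slc5a2. Some genes the rule names are not reported here. Other genes are said to be chosen after their values were seen; so were Prox1 and Kit. The titles list a pair of numbered items per rat, which the sources used here do not explain; each column was taken as 1 rat, and p-values measure the spread between these rats. Counting intervals and floors cover counting error only. The alternatives were other pseudocounts, filters, scalings, models and covariates, a replicate block and each rat left out.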

Additional observations from a re-analysis of the deposited data

How the results depend on the processing

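Of the 126 higher and 147 lower genes, the counts moved by more than 1.5 times under some settings, and the cause was not tested unless stated. The higher count was 71 with the replicate block, 0 with an adjusted p, 27 with the cardiomyocyte and 53 with the macrophage level as covariate, 608 with no fold threshold, and 38 to 408 with 1 rat less. The lower count was 224 with a pseudocount of 0.1, 87 with an FPKM of at least 1 in all 6 rats (fewer genes tested), 0 with an adjusted p, 60 and 88 with the covariates, 517 with no fold threshold, and 73 to 238 with 1 rat less. Among the fits with 1 rat less, the lowest counts were 38 and 73 without MI replicate 2, and the highest were 408 without MI replicate 3 and 238 without MI replicate 1, where 2 genes passed an adjusted p of 0.05 (smallest 0.00294, limma); 0 genes did in every other alternative. Same-numbered rats did not deviate together (correlations 0.028, -0.321 and -0.259), so the numbers were not taken to pair them; the replicate block gave 71 higher and 146 lower genes.

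Among the genes whose values are given above, and Il1rl1, these log2 fold changes changed sign, all from values that did not pass the test. Genes of the fixed lists that are not named one by one also turned with the cardiomyocyte covariate, as the fetal and stress programme did. With the cardiomyocyte level as covariate Bcl2 was 0.24, Acta2 0.11, Nppb -0.44, Il1rl1 0.043 and Gapdh -0.018, and with the macrophage level Bcl2 was 0.22 and Acta2 0.16. Casp9 was 0.0089 with median-of-ratios scaling, 0.056 with quantile normalization, and 0.045, 0.013 and 0.014 without DAPA replicates 1 and 3 and MI replicate 2, in a range of -0.064 to 0.045 with 1 rat less. Acta2 was 0.17 without DAPA replicate 2 and 0.076 without MI replicate 1, in a range of -0.17 to 0.17. Tgfb1 was -0.0036 with the mitochondrial genome left out, -0.043 with quantile normalization, -0.098 without DAPA replicate 1 and -0.00027 without MI replicate 3, in a range of -0.098 to 0.15. With 3 rats a group, depth limited genes of few reads, such as Slc5a2.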
